A study of Homo sapiens with 24 samples.

Results

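Expression of 9 genes that carry the interferon signal was measured by RNA-seq in 2 metastatic clear cell renal carcinoma cell lines, 786-M1A and OS-LM1, with and without depletion of the lineage transcription factor PAX8. The 9 genes are the type I interferon receptor chains IFNAR1 and IFNAR2, the kinase JAK1, the transcription factors STAT2 and STAT3, and the interferon regulatory factors IRF1, IRF3, IRF7 and IRF9. They were taken by name from the 26475 genes listed in each library, and all 9 passed the filter on low counts in every fit. The 24 libraries comprise 4 replicates each of shPAX8-1, shPAX8-2 and sgNTC18 in both lines.

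786-M1A was derived from 786-O cells and OS-LM1 from OS-RC2 cells by selection for metastasis, so that each line stands for a single tumour. Both lines lack a working VHL tumour suppressor in all groups, and both were kept in RPMI medium with fetal bovine serum. The shPAX8-1 and shPAX8-2 cells express a short hairpin RNA against PAX8, and the study's methods list doxycycline-inducible plasmids for hairpins, while the labels give neither the vector nor doxycycline for these libraries. The sgNTC18 cells are labelled as carrying a non-targeting guide RNA, not a hairpin. A difference between shPAX8 and sgNTC18 can therefore not be told apart from a difference between hairpin and guide constructs or between the experiments in which the cells were made. No untreated or interferon-treated cells were among the libraries.

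Type I interferons bind a receptor made of IFNAR1 and IFNAR2, which activates the kinases JAK1 and TYK2. These phosphorylate STAT2, which with IRF9 forms part of the complex ISGF3 that switches on the interferon-stimulated genes. IRF3 and IRF7 act one step earlier and switch on the interferon genes themselves once nucleic acid sensors are triggered, whereas IRF1 and STAT3 serve mainly interferon gamma and interleukin-6 type signals. In resting cells, unphosphorylated STAT2 and IRF9 can keep interferon-stimulated genes at a basal level.

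Sequences of both hairpin guides and of a pair of member promoters are shown first, because they define what was depleted and what lies in front of the member genes. Each guide, taken from the study's list of oligonucleotides, is written 5′ to 3′, with its seed (bases 2 to 8) in capitals:
shPAX8-1: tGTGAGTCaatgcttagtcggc
shPAX8-2: tAGAGTTGtgttaataatggag
Both are antisense to PAX8, which lies on the minus strand of chromosome 2. The site of shPAX8-1 (hg38, chr2:113241690-113241711) is exonic in 10 of 14 annotated PAX8 transcripts and coding in 8 of them. The site of shPAX8-2 (hg38, chr2:113218122-113218143) lies in the 3′ UTR of 7 PAX8 transcripts. Neither guide had a full-length match in an annotated transcript of the 9 member genes. Matches of the seed alone were not searched, so action of the guides on the members was not tested.

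Promoter windows of 250 bases before and 50 bases after the start site were taken from RefSeq (GRCh38.p14) for 6 of the 9 members. IRF3, IRF7 and IFNAR2 were not among them. The windows were searched on both strands for the interferon-stimulated response element bound by ISGF3, spelled as 2 copies of GAAA parted by 2 bases of any kind, and for the gamma-activated site bound by STAT dimers, spelled TTCNNNGAA. None of the 6 members held the first, which 3.57% of all 35116 windows held, whereas IRF1 and IRF9 held the second, which occurs in 7.66% of all windows. At so low a background, finding none in 6 members does not show that they lack the first element, and other spellings were not searched. The gamma-activated letters of IRF1 lay 124 bases upstream of its start site and those of IRF9 63 bases upstream. They are in capitals in the following windows, the first on the minus strand (chr5:132490724-132491023) and the second on the plus strand (chr14:24161015-24161314):
IRF1: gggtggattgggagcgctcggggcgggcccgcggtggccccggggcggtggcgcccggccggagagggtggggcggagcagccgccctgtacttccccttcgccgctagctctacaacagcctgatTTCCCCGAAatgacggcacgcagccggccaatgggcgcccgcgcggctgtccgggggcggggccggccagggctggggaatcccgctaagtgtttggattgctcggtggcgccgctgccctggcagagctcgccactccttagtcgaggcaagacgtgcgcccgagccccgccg
IRF9: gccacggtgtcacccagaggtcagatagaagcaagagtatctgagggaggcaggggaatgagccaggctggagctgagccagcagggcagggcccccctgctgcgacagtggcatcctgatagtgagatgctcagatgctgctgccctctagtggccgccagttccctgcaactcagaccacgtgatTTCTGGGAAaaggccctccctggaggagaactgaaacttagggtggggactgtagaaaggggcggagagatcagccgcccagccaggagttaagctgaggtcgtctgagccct

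Sequencing depth ranged from 11634419 to 52059375 expected counts per library. PAX8 itself checked the labels: it stood at 291.5 to 393.1 CPM (counts scaled to library size) in the 4 sgNTC18 libraries of 786-M1A, at 14.8 to 22.9 CPM with shPAX8-1 and at 42.4 ± 2.36 CPM (SD, n = 4) with shPAX8-2. In OS-LM1 it was 244.6 to 278.8 CPM with sgNTC18, 78.2 ± 13.0 CPM with shPAX8-1 and 79.2 ± 13.7 CPM with shPAX8-2 (SD, n = 4 each). EPAS1 (111.2 to 631.9 CPM) and VIM (3666 to 11425 CPM) were detected in all 24 libraries, whereas CA9 and NDUFA4L2, markers of clear cell carcinoma, were at 0 in at least 1 library. Of the leukocyte markers, CD3E was at 0 in all libraries, PTPRC reached 0.317 CPM, CD14 3.65 CPM and LYZ 4.28 CPM. The endothelial markers PECAM1, VWF and CDH5 summed to at most 0.923 CPM, and of the fibroblast markers COL1A1 reached 204.6 CPM and COL3A1 16.6 CPM, while PDGFRA and DCN stayed at or below 1.17 CPM. Most genes differed between shPAX8 and sgNTC18, which is the background for every count given here. In the shPAX8-1 group of 786-M1A, replicates 1 and 2 stood apart from replicates 3 and 4. The chi-square per gene was 44.74 to 77.37 across these pairs, against 14.09 and 3.73 within them, and results that rest on this group are given for both pairs where a call changed or a value differed by over 1.5 times, or for IRF7. Other groups were uneven too. The chi-square per gene was 16.03 to 89.45 in OS-LM1 shPAX8-2, whose depth ranged from 14567945 to 52059375, and reached 43.8 in OS-LM1 sgNTC18. The labels call the libraries replicates and do not say whether they came from separate cultures, so the p-values measure only the spread between these libraries.

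JAK1 was the most abundant of the 9 genes in every group, at 138.5 ± 14.4 TPM (transcript level scaled to length and library size; SD, n = 4) in sgNTC18 cells of 786-M1A and 154.8 ± 12.1 TPM (SD, n = 4) in those of OS-LM1. The TPM scale corrects for transcript length and was used only to rank genes. In 786-M1A sgNTC18 cells the order after JAK1 was STAT2 with 77.6 ± 7.13 TPM and IRF3 with 55.1 ± 4.78 TPM, each apart from its neighbours. STAT3, IFNAR2, IRF9 and IRF1 followed between 42.2 and 39.3 TPM, and neighbours in that order overlapped. IRF7 (24.3 ± 2.38 TPM) and IFNAR1 (10.1 ± 1.42 TPM) came last, without overlap. In OS-LM1 sgNTC18 cells STAT2 ranked 6th with 18.7 ± 1.9 TPM, overlapping IRF1 above it, and IRF7 ranked last with 6.71 ± 0.88 TPM.

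**Figure D1:**
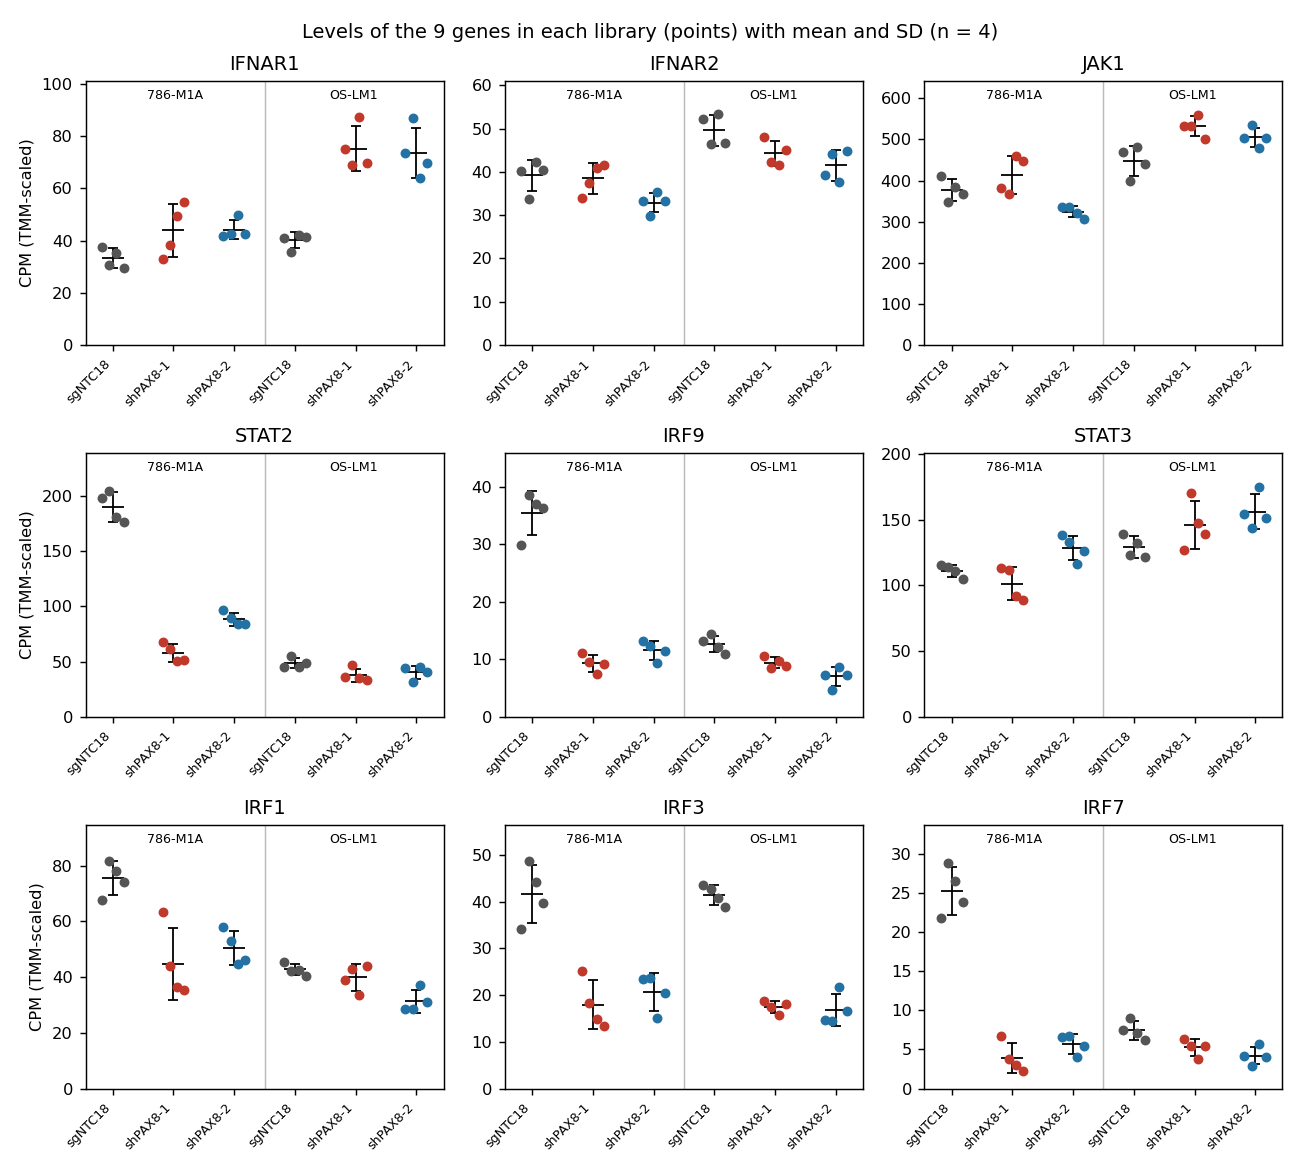
Levels of the 9 genes in CPM on linear axes from 0, with points for single libraries, bars for the mean and SD of 4 replicates, and 786-M1A on the left and OS-LM1 on the right of each panel. STAT2, IRF9 and IRF7 are high in the 786-M1A sgNTC18 libraries and lower in all the others, IRF3 is high in the sgNTC18 libraries of both lines, and IFNAR1 is high in the OS-LM1 shPAX8 libraries.

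The question of which interferon signalling genes differ after PAX8 depletion was first asked in 786-M1A. The subunits of ISGF3 and the interferon regulatory factors fell, the receptor chain IFNAR1 rose slightly, and STAT3, JAK1 and IFNAR2 did not pass the test. With shPAX8-1, 5 of the 9 genes fell and 1 rose at an adjusted p under 0.05, where 70.6% of all 14452 genes tested were called. The median log2 fold change was -0.73 over the 9 genes and 0.03 over all genes. With shPAX8-2 the counts were again 5 lower and 1 higher, where 62.5% of all genes were called, with medians of -0.56 and 0.02. The share of members called is thus near that of all genes, and what is particular to each gene is its size and direction. Both hairpins were compared with the same sgNTC18 libraries. In bulk RNA, fewer cells that express a gene and less RNA per cell cannot be told apart.

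STAT2, the subunit of ISGF3 that carries its transactivation domain, lies on chromosome 12 (56341597 to 56360107). In 786-M1A it was measured at 198.0, 204.9, 180.7 and 176.8 CPM with sgNTC18, at 67.5, 61.6, 50.8 and 51.4 CPM with shPAX8-1 and at 96.4, 89.7, 84.0 and 84.1 CPM with shPAX8-2. The 3 groups did not overlap, and shPAX8-1 was the lowest. STAT2 was 3.24-fold lower with shPAX8-1 (log2 fold change -1.69, SE 0.11, adjusted p = 4.4e-09) and 2.11-fold lower with shPAX8-2 (log2 fold change -1.08, SE 0.11, adjusted p = 6.8e-07).

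IRF9, the DNA-binding subunit of ISGF3, lies on chromosome 14 (24161265 to 24166565). Its level in 786-M1A was 29.9, 38.6, 36.9 and 36.3 CPM with sgNTC18, 11, 9.46, 7.46 and 9.22 CPM with shPAX8-1, and 13.2, 12.3, 9.36 and 11.5 CPM with shPAX8-2. All 8 depleted libraries were below the lowest sgNTC18 library, and the 2 hairpins overlapped each other. IRF9 fell by 1.91 on the log2 scale with shPAX8-1 (SE 0.15, adjusted p = 2.6e-08) and by 1.58 with shPAX8-2 (SE 0.15, adjusted p = 3.0e-07).

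IRF7, which amplifies interferon production, lies on chromosome 11 (612555 to 615950) and showed the largest change among the 9 genes. It was 21.8, 28.8, 26.6 and 23.8 CPM with sgNTC18 in 786-M1A. With shPAX8-1 it was 6.69, 3.77, 2.95 and 2.26 CPM, and with shPAX8-2 it was 6.6, 6.69, 3.98 and 5.46 CPM. The highest depleted libraries, at 6.69 CPM, were far below the lowest control at 21.8 CPM. IRF7 was 6.31-fold lower with shPAX8-1 (log2 fold change -2.66, SE 0.26, adjusted p = 3.2e-07) and 4.34-fold lower with shPAX8-2 (log2 fold change -2.12, SE 0.25, adjusted p = 4.4e-06). The fall with shPAX8-1 was by 3.26 on the log2 scale in replicates 3 and 4 alone and by 2.28 in replicates 1 and 2 alone.

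IRF3, the factor that turns on interferon genes directly after sensing, lies on chromosome 19 (49659572 to 49665857). In 786-M1A it stood at 34.1, 48.6, 44.1 and 39.6 CPM with sgNTC18, at 25.1, 18.3, 14.9 and 13.3 CPM with shPAX8-1 and at 23.5, 23.6, 15.1 and 20.4 CPM with shPAX8-2. Depleted and control libraries did not overlap. The log2 fold change was -1.19 with shPAX8-1 (SE 0.19, adjusted p = 5.8e-05) and -0.98 with shPAX8-2 (SE 0.19, adjusted p = 4.4e-04). IRF1, on chromosome 5 (132481609 to 132490773), an inducible activator of antigen presentation genes, changed less. It ranged from 67.5 to 81.8 CPM with sgNTC18, from 35.5 to 63.3 CPM with shPAX8-1 and from 44.7 to 57.9 CPM with shPAX8-2. Its log2 fold changes were -0.73 (SE 0.16, adjusted p = 9.1e-04) and -0.56 (SE 0.16, adjusted p = 0.0076), and replicate 1 of shPAX8-1, at 63.3 CPM, was the depleted library nearest to the controls. With shPAX8-1 replicates 3 and 4 alone, IRF3 gave -1.55 (adjusted p = 5.8e-07) and IRF1 -1.05 (adjusted p = 6.6e-07). With replicates 1 and 2 alone, IRF3 gave -0.94 (adjusted p = 2.7e-04) and IRF1 -0.50 (adjusted p = 0.0063).

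IFNAR1, the receptor chain that recruits TYK2, lies on chromosome 21 (33324395 to 33359864), near IFNAR2 (33229938 to 33265664), the chain that recruits JAK1. IFNAR1 in 786-M1A was 37.5, 30.8, 35.3 and 29.6 CPM with sgNTC18, 33.0, 38.2, 49.6 and 54.9 CPM with shPAX8-1, and 41.9, 42.7, 49.7 and 42.5 CPM with shPAX8-2. The shPAX8-2 libraries were all above the controls, while 1 shPAX8-1 library lay within their range. The log2 fold change was 0.42 with shPAX8-1 (SE 0.15, adjusted p = 0.02) and 0.43 with shPAX8-2 (SE 0.15, adjusted p = 0.022). The call with shPAX8-1 was lost in replicates 1 and 2 alone (0.09, adjusted p = 0.54) and was 0.66 in replicates 3 and 4 alone. It was also lost without sgNTC18 replicate 2 (0.38, adjusted p = 0.059), sgNTC18 replicate 4 (0.36, adjusted p = 0.067), shPAX8-1 replicate 3 (0.36, adjusted p = 0.061) or shPAX8-1 replicate 4 (0.29, adjusted p = 0.084). The call with shPAX8-2 was lost without sgNTC18 replicate 2 (0.38, adjusted p = 0.063), sgNTC18 replicate 4 (0.37, adjusted p = 0.072) or shPAX8-2 replicate 3 (0.37, adjusted p = 0.057).

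JAK1, STAT3 and IFNAR2 varied little in 786-M1A. JAK1, on chromosome 1 (64833229 to 65067746), was 347.0 to 412.1 CPM with sgNTC18, 367.3 to 459.8 CPM with shPAX8-1 and 306.5 to 335.3 CPM with shPAX8-2, with log2 fold changes of 0.16 (adjusted p = 0.16) and -0.20 (adjusted p = 0.082). STAT3, on chromosome 17 (42313324 to 42388442), the main mediator of interleukin-6 type cytokines, gave -0.11 (adjusted p = 0.34) and 0.23 (adjusted p = 0.062). IFNAR2 gave -0.01 (adjusted p = 0.97) and -0.23 (adjusted p = 0.075). The shPAX8-2 libraries nevertheless lay wholly below the controls for JAK1 and wholly above them for STAT3, at 116.5 to 138.3 CPM against 104.7 to 115.1 CPM. With shPAX8-1 replicates 3 and 4 alone, JAK1 gave 0.28 (adjusted p = 0.011) and STAT3 -0.28 (adjusted p = 0.016), and with replicates 1 and 2 alone they gave -0.01 (adjusted p = 0.9) and 0.01 (adjusted p = 0.92).

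In OS-LM1 the same comparison gave smaller changes for the ISGF3 subunits and larger ones for IFNAR1. With shPAX8-1, 4 of the 9 genes fell and 2 rose, where 71.4% of all 15049 genes tested were called, with a median log2 fold change of -0.19 over the 9 genes and -0.01 over all genes. With shPAX8-2, 5 fell and 3 rose, where 68.4% of all genes were called, with medians of -0.27 and -0.01. The 6 of 9 called with shPAX8-1 are a share near that of all genes.

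IRF3 was 43.5, 42.7, 40.8 and 38.8 CPM with sgNTC18 in OS-LM1, 18.7, 17.5, 15.8 and 18 CPM with shPAX8-1, and 14.6, 14.4, 21.7 and 16.5 CPM with shPAX8-2. Control and depleted libraries were far apart, and the hairpins overlapped each other. IRF3 was 2.41-fold lower with shPAX8-1 (log2 fold change -1.27, SE 0.12, adjusted p = 9.1e-09) and 2.44-fold lower with shPAX8-2 (log2 fold change -1.28, SE 0.12, adjusted p = 9.4e-09).

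IFNAR1 was 41.1, 35.5, 42.3 and 41.5 CPM with sgNTC18 in OS-LM1. It reached 75.1, 68.9, 87.4 and 69.6 CPM with shPAX8-1, and 73.4, 86.9, 64.1 and 69.9 CPM with shPAX8-2. All 8 depleted libraries exceeded every control by a wide margin. The change was 1.85-fold with shPAX8-1 (log2 fold change 0.88, SE 0.11, adjusted p = 3.9e-07) and 1.84-fold with shPAX8-2 (log2 fold change 0.88, SE 0.11, adjusted p = 4.9e-07). IFNAR2 moved the other way, with -0.19 (adjusted p = 0.066) and -0.25 (adjusted p = 0.018), and its call with shPAX8-2 was lost without sgNTC18 replicate 3 (-0.22, adjusted p = 0.062), shPAX8-2 replicate 1 (-0.23, adjusted p = 0.053) or shPAX8-2 replicate 3 (-0.21, adjusted p = 0.061).

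IRF9 was 13.1, 14.3, 12.2 and 10.9 CPM with sgNTC18 in OS-LM1, 10.6, 8.41, 9.63 and 8.84 CPM with shPAX8-1, and 7.28, 4.71, 8.7 and 7.33 CPM with shPAX8-2. The depleted libraries lay below the controls, with shPAX8-1 replicate 1 just under the lowest of them. The log2 fold change was -0.46 with shPAX8-1 (SE 0.15, adjusted p = 0.0093) and -0.83 with shPAX8-2 (SE 0.15, adjusted p = 6.7e-05). STAT2 was 45.3, 55.5, 45.3 and 48.5 CPM with sgNTC18, 35.6, 46.5, 35.4 and 32.9 CPM with shPAX8-1, and 43.9, 31.7, 44.8 and 40.3 CPM with shPAX8-2. A single shPAX8-1 library overlapped the controls, and 2 shPAX8-2 libraries came within 2 CPM of them. Its fall passed the test with shPAX8-1 (log2 fold change -0.40, SE 0.12, adjusted p = 0.0073) and missed it with shPAX8-2 (-0.27, SE 0.12, adjusted p = 0.059).

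IRF7 was 7.52, 9.05, 7.09 and 6.2 CPM with sgNTC18 in OS-LM1, 6.36, 5.45, 3.81 and 5.46 CPM with shPAX8-1, and 4.2, 2.92, 5.69 and 4.1 CPM with shPAX8-2. The shPAX8-1 libraries overlapped the controls and the shPAX8-2 libraries did not. The log2 fold change was -0.53 with shPAX8-1 (SE 0.19, adjusted p = 0.016) and -0.79 with shPAX8-2 (SE 0.19, adjusted p = 0.0011). The shPAX8-1 call was lost without sgNTC18 replicate 2 (-0.40, adjusted p = 0.082) or shPAX8-1 replicate 3 (-0.41, adjusted p = 0.061). IRF1 fell with shPAX8-2 (-0.44, SE 0.10, adjusted p = 9.9e-04) and gave -0.12 with shPAX8-1 (adjusted p = 0.29).

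STAT3 and JAK1 were slightly higher in the depleted OS-LM1 cells. STAT3 was 121.6 to 139.2 CPM with sgNTC18, 126.6 to 169.9 CPM with shPAX8-1 and 143.7 to 174.9 CPM with shPAX8-2, with log2 fold changes of 0.15 (adjusted p = 0.15) and 0.28 (adjusted p = 0.012). The latter call was lost without sgNTC18 replicate 4 (0.25, adjusted p = 0.051). JAK1 was 399.0 to 481.6 CPM with sgNTC18, 501.5 to 560.6 CPM with shPAX8-1 and 478.5 to 535.4 CPM with shPAX8-2, with log2 fold changes of 0.22 (adjusted p = 0.016) and 0.18 (adjusted p = 0.048). Its shPAX8-1 call was lost without shPAX8-1 replicate 3 (0.19, adjusted p = 0.071). Its shPAX8-2 call was lost when any of 10 of the 12 OS-LM1 libraries was left out, with values of 0.13 to 0.20.

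**Figure D2:**
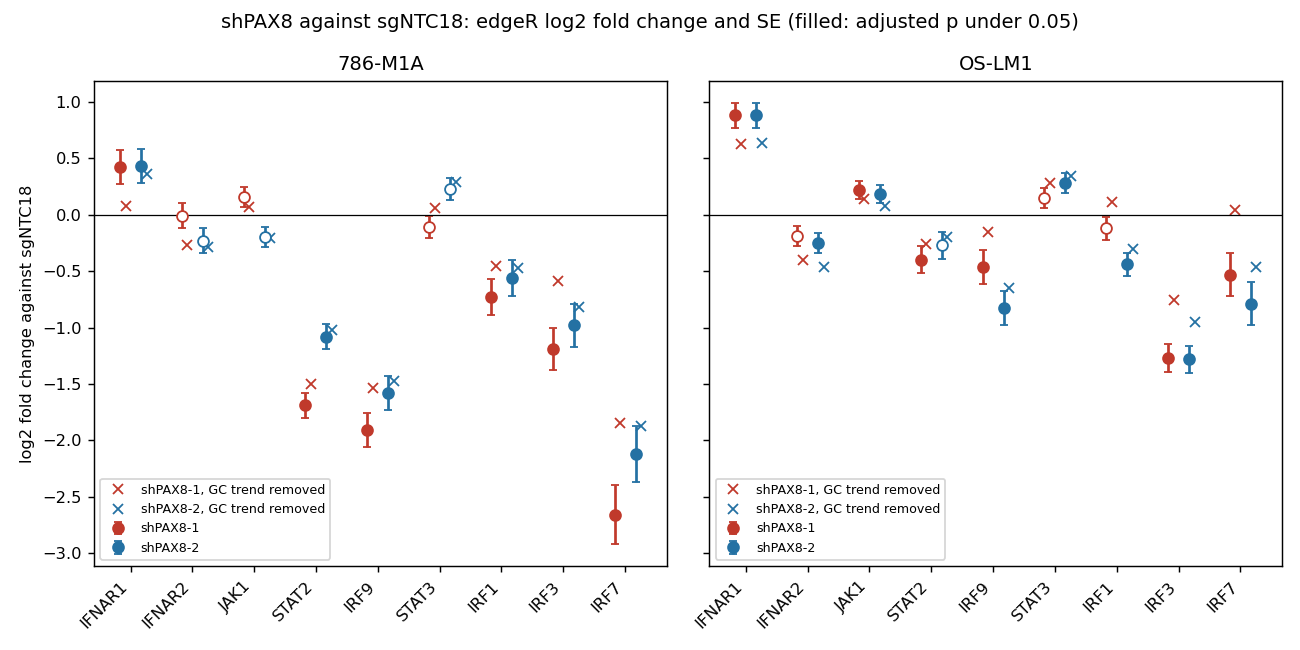
Log2 fold change of shPAX8-1 and shPAX8-2 against sgNTC18 for the 9 genes in each line, with SE bars (edgeR, n = 4 per group), where filled circles passed an adjusted p of 0.05 and crosses are the same contrast after the GC trend of each library was removed. In 786-M1A the values run from -2.66 for IRF7 to 0.43 for IFNAR1, and in OS-LM1 from -1.28 for IRF3 to 0.88 for IFNAR1.

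Base composition moved with these changes. Across genes, which are not independent replicates, the fold change of shPAX8-1 against sgNTC18 had a rank correlation with GC content of -0.363 in 786-M1A and -0.321 in OS-LM1, and that of shPAX8-2 one of -0.098 and -0.275. Among the members IRF7 has the highest GC content, 66.8%, which is percentile 98.7 of the genes tested. IRF3 follows with 59% and IRF9 with 53.9%, and IFNAR1 has the lowest with 42.9%. After each library's GC trend was removed, IRF7 in 786-M1A gave -1.85 with shPAX8-1 and -1.87 with shPAX8-2, IRF9 gave -1.54 and -1.47, and STAT2 gave -1.50 and -1.02, all past the threshold. IRF3 with shPAX8-1 kept its call at a smaller size, -0.59 in 786-M1A (adjusted p = 2.0e-05) and -0.76 in OS-LM1 (adjusted p = 2.6e-08). IRF1 with shPAX8-1 in 786-M1A gave -0.45 (adjusted p = 0.0011). IFNAR1 with shPAX8-1 in 786-M1A dropped to 0.08 (adjusted p = 0.4). In OS-LM1 with shPAX8-1, IRF7 turned to 0.04 (adjusted p = 0.8), the only called value among the 9 genes whose direction changed under any alternative run, and IRF9 shrank to -0.15 (adjusted p = 0.27) and STAT2 to -0.26 (adjusted p = 0.04). With shPAX8-2 in OS-LM1, IRF7 shrank to -0.46 (adjusted p = 0.007) and IFNAR2 grew to -0.46 (adjusted p = 1.8e-05). IFNAR2 passed the test with shPAX8-1 too, at -0.40 in OS-LM1 (adjusted p = 7.7e-05) and -0.27 in 786-M1A (adjusted p = 0.0022). JAK1 in OS-LM1 lost its calls, with 0.14 (adjusted p = 0.074) and 0.08 (adjusted p = 0.31). The crosses in the plot of fold changes show these shifts.

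The difference between the lines was tested directly. The fall was larger in 786-M1A for STAT2, IRF9 and IRF7, by 1.08 (SE 0.15, adjusted p = 5.0e-07), 1.13 (SE 0.18, adjusted p = 7.7e-06) and 1.76 (SE 0.28, adjusted p = 6.7e-06) on the log2 scale. IFNAR1 rose more in OS-LM1, by 0.49 (SE 0.16, adjusted p = 0.011), and JAK1 by 0.25 (SE 0.10, adjusted p = 0.037). In all, 5 of the 9 genes differed between the lines, all in the positive direction for OS-LM1, where 58.7% of all 15665 genes were called and 29.9% in that direction. The value for IRF3, -0.16 (SE 0.20, adjusted p = 0.52), and that for IRF1, 0.39 (SE 0.17, adjusted p = 0.052), missed the threshold. The JAK1 difference was lost when any of 11 libraries was left out (0.20 to 0.25) and was 0.15 (adjusted p = 0.19) with replicates 3 and 4 of shPAX8-1 alone.

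The lines already differed in sgNTC18 cells. STAT2 was 3.91-fold lower in OS-LM1 than in 786-M1A (log2 difference -1.97, SE 0.12, adjusted p = 1.1e-13), IRF7 3.38-fold lower (-1.76, SE 0.22, adjusted p = 1.4e-07), IRF9 2.80-fold lower (-1.48, SE 0.15, adjusted p = 1.7e-09) and IRF1 1.76-fold lower (-0.82, SE 0.14, adjusted p = 1.3e-05). IFNAR2 and JAK1 were higher in OS-LM1, by 0.34 (adjusted p = 0.0031) and 0.25 (adjusted p = 0.013), and the JAK1 call was lost without 786-M1A sgNTC18 replicate 2 (0.21, adjusted p = 0.054) or OS-LM1 sgNTC18 replicate 3 (0.21, adjusted p = 0.051). These 6 calls, 4 lower and 2 higher in OS-LM1, stand beside a background of 63% of all genes, 31% lower and 32% higher. IRF3 was level between the lines, at -0.01 (SE 0.16, adjusted p = 0.98), and at 0.32 (adjusted p = 0.0012) with the GC trend removed. That step also brought IRF7 to -0.93 and ended the calls of IFNAR2 (0.13, adjusted p = 0.099) and JAK1 (0.11, adjusted p = 0.18).

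In the depleted cells the gap between the lines was narrower for STAT2, IRF9 and IRF7, as the test of the line difference above gives. There, 7 of the 9 genes differed, where 83.1% of all genes did, 41.7% of them being higher and 41.5% lower in OS-LM1 as shares of all genes. STAT2 was lower in OS-LM1 by a log2 difference of -0.88 (SE 0.09, adjusted p = 3.2e-10), IRF1 by -0.43 (adjusted p = 3.6e-04) and IRF9 by -0.35 (adjusted p = 0.0047). IRF7 gave 0.00 (SE 0.17, adjusted p = 0.99) and IRF3 -0.16 (SE 0.12, adjusted p = 0.21). IFNAR1, JAK1, STAT3 and IFNAR2 were higher in OS-LM1, by 0.76, 0.50, 0.40 and 0.27. With the GC trend removed, IRF7 was higher in OS-LM1 by 0.71 and the difference of IFNAR2 was 0.01 (adjusted p = 0.79).

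Averaged over both lines, 6 of the 9 genes fell and 1 rose, where 72.8% of all genes were called, 37.2% lower and 35.6% higher, with medians of -0.47 over the 9 genes and -0.00 over all. IRF7 changed by -1.53 (SE 0.14, adjusted p = 1.0e-10), IRF9 by -1.20 (SE 0.09, adjusted p = 2.5e-12), IRF3 by -1.19 (SE 0.10, adjusted p = 1.9e-11), STAT2 by -0.87 (SE 0.07, adjusted p = 1.9e-11) and IRF1 by -0.47 (SE 0.08, adjusted p = 1.8e-05). IFNAR1 rose by 0.65 (SE 0.08, adjusted p = 8.4e-08). With the GC trend removed, IRF7 gave -0.95, IRF3 -0.74 and IRF1 -0.26. For STAT2, IRF9, IRF7, JAK1 and IFNAR1 this average joins lines that differed in the test above.

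The hairpins were also compared with each other, a contrast in which no guide RNA construct takes part. In 786-M1A, 3 of the 9 genes differed, where 47.1% of all genes did. STAT2 was lower with shPAX8-1 (-0.61, SE 0.11, adjusted p = 5.1e-04), STAT3 was lower (-0.34, SE 0.10, adjusted p = 0.014) and JAK1 was higher (0.35, SE 0.09, adjusted p = 0.0076), and for these 3 genes the groups did not overlap. PAX8 itself was lower with shPAX8-1 by -1.18 (SE 0.15, adjusted p = 4.0e-05). With shPAX8-1 replicates 3 and 4 alone, 8 of the 9 genes differed, with replicates 1 and 2 alone only STAT2 did (-0.45, adjusted p = 0.0052), and without replicate 1 it was 7. The calls over all genes moved too. Without replicate 1, 7916 of 14620 genes were called, and with replicates 1 and 2 alone fewer were called than with all 4 replicates. The share of all genes called with replicates 3 and 4 alone is not given here. The 8 genes called in that run are therefore not read as a result about the 9 genes.

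In OS-LM1 the hairpins, which left like levels of PAX8, differed in 1 of the 9 genes, where 29.1% of all genes were called. IRF1 was higher with shPAX8-1 by 0.32 (SE 0.11, adjusted p = 0.03), with overlapping groups. This call was lost without shPAX8-2 replicate 1 (0.28, adjusted p = 0.093), replicate 2 (0.28, adjusted p = 0.058) or replicate 4 (0.33, adjusted p = 0.053), and without shPAX8-1 replicate 1 (0.33, adjusted p = 0.051), replicate 2 (0.30, adjusted p = 0.065) or replicate 4 (0.26, adjusted p = 0.1). The contrast of the hairpins differed between the lines for STAT2 (0.51, SE 0.17, adjusted p = 0.025) and IRF9 (0.72, SE 0.22, adjusted p = 0.016), where 27.2% of all genes were called and 12.7% in the same, positive direction, and for neither of them with 786-M1A shPAX8-1 replicates 1 and 2 alone (0.35, adjusted p = 0.18 and 0.58, adjusted p = 0.09). The STAT2 value ranged down to 0.40 and lost its call when any of 5 libraries was left out.

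The targets and other pathway genes were read from lists written with earlier results of these data known. Of 25 target genes of ISGF3, 24 were lower in 786-M1A with either hairpin, where 34.5% of all genes were lower with shPAX8-1 and 30.9% with shPAX8-2. The list medians were -3.95 and -4.52 on the log2 scale, against 0.03 and 0.02 for all genes, and IFITM2, which shares much of its sequence with IFITM1 and IFITM3, was the 1 gene that missed the test. OAS2, a sensor that starts RNA decay, stood at 280.3 ± 30.2 CPM (SD, n = 4) with sgNTC18 and 0.762 ± 0.155 CPM with shPAX8-1 (-8.49, adjusted p = 5.5e-14), and had 2 to 4 counts per library with shPAX8-2. OAS1, a related enzyme, fell from 148.8 ± 10.6 CPM to 2.01 ± 0.386 CPM and 0.938 ± 0.414 CPM (-7.34 with shPAX8-2, adjusted p = 3.4e-12). IFI44L fell from 76.3 ± 10.5 CPM to 0.62 ± 0.184 CPM with shPAX8-1 (-6.92, adjusted p = 8.9e-12).

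The same list did not move in 1 direction in OS-LM1. With shPAX8-1, 9 of the 25 genes rose and 7 fell (median 0.17), where 35.6% of all genes rose and 35.8% fell. With shPAX8-2, 5 rose and 16 fell (median -0.91), where 34.3% rose and 34.1% fell. SAMD9, an antiviral factor, rose from 16.8 ± 1.13 CPM (SD, n = 4) to 168.2 ± 16.7 CPM with shPAX8-1 (3.30, adjusted p = 7.4e-15), while OAS3 fell from 54.7 ± 4.75 CPM to 23.7 ± 2.65 CPM (-1.23, adjusted p = 5.2e-09). IFIT1, which binds viral RNA ends, fell from 15.6 ± 2.22 CPM to 4.45 ± 0.772 CPM with shPAX8-2 (-1.82, adjusted p = 1.7e-09). Between the hairpins in OS-LM1, 16 of the 25 genes were higher with shPAX8-1, where 12.4% of all genes were higher. At an adjusted p under 0.01 it was 15 of the 25, where 1155 of all 15049 genes were higher. In this contrast, IFIT3 differed by 1.97 (adjusted p = 1.5e-09) and SAMD9 by 1.84 (adjusted p = 4.7e-10), whereas STAT2 and IRF9 gave -0.13 (adjusted p = 0.48) and 0.37 (adjusted p = 0.078).

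Summed over the 25 target genes, the level was 4816 to 5009 CPM in the 786-M1A sgNTC18 libraries and 818.8 to 1338 CPM in the 8 depleted ones. In OS-LM1 it was 985.9 to 1078 CPM with sgNTC18, 1272 to 1504 CPM with shPAX8-1 and 889.9 to 1289 CPM with shPAX8-2. The 786-M1A sgNTC18 cells stood apart from all other libraries, which lay between 818.8 and 1504 CPM. All 25 genes had a positive difference between the lines in the change after depletion that passed the test (median 4.01), where 29.9% of all genes did.

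**Figure D3:**
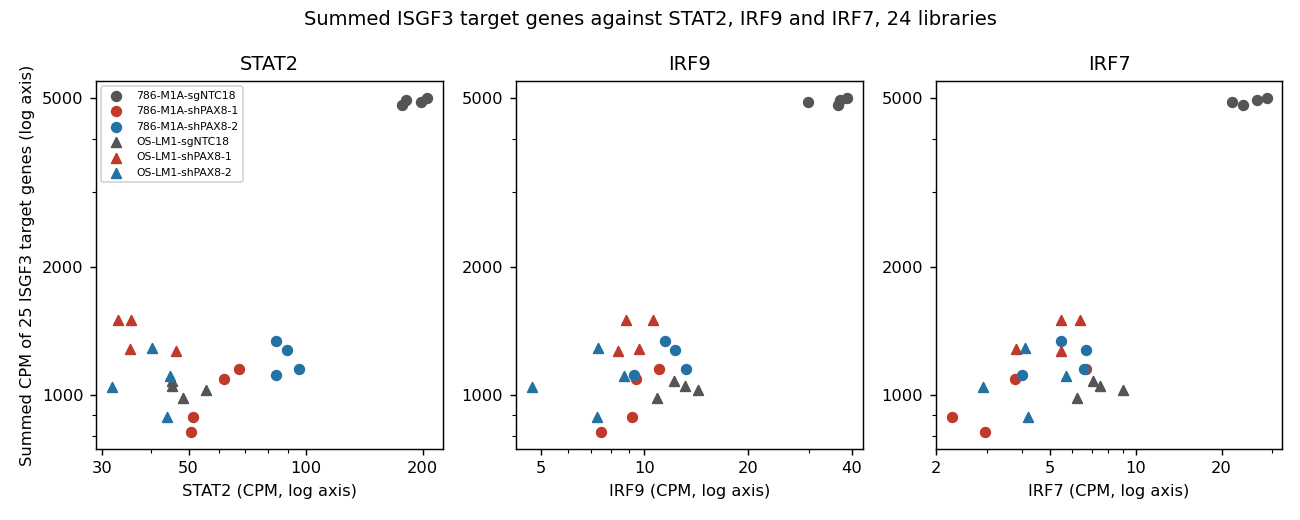
Summed CPM of the 25 ISGF3 target genes against the CPM of STAT2, IRF9 and IRF7, 1 point per library, both axes logarithmic, with circles for 786-M1A and triangles for OS-LM1. The 4 circles of 786-M1A sgNTC18, at 4816 to 5009 CPM, lie apart at the upper right, and all other libraries lie at or below 1504 CPM.

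Receptors and kinases other than the members rose more often than they fell. In 786-M1A, 5 of 8 rose and 2 fell with shPAX8-1, and 4 rose with shPAX8-2, with medians of 0.71 and 0.60, where 36.1% and 31.5% of all genes rose. The shares of all genes that fell there were 34.5% and 30.9%. In OS-LM1, 6 rose and 1 fell with shPAX8-1, where 35.6% of all genes rose and 35.8% fell, and 5 rose and 1 fell with shPAX8-2, where 34.3% rose and 34.1% fell, with medians of 0.53 and 0.48. IFNGR1, a chain of the interferon gamma receptor, rose from 24.6 ± 1.69 CPM (SD, n = 4) to 84.6 ± 24.5 CPM with shPAX8-1 in 786-M1A (1.80, adjusted p = 2.5e-07) and from 29.7 ± 2.14 CPM to 103.2 ± 4.92 CPM in OS-LM1 (1.77, adjusted p = 1.9e-11). IFNGR2, its second chain, rose by 1.37 (adjusted p = 2.2e-08) and 1.24 (adjusted p = 9.3e-10). TYK2, the kinase held by IFNAR1, fell in OS-LM1 with shPAX8-1 from 45.1 ± 5.32 CPM to 18.1 ± 2.74 CPM (-1.35, adjusted p = 1.4e-07).

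Nucleic acid sensors and adaptors were lower in 786-M1A, 10 of 11 tested with shPAX8-1 and 8 of 11 with shPAX8-2, with medians of -1.0 and -1.07, where 34.5% and 30.9% of all genes were lower. DDX58, the sensor RIG-I, fell from 78.7 ± 9.03 CPM (SD, n = 4) to 6.93 ± 1.65 CPM and 5.21 ± 1.04 CPM (-3.48 and -3.91, adjusted p = 4.7e-10 for both). IKBKE, a kinase that activates IRF3 and IRF7, fell from 18.2 ± 2.53 CPM to 1.89 ± 0.461 CPM and 4.72 ± 0.528 CPM. In OS-LM1 the list was split, with 3 higher and 2 lower for shPAX8-1 and 4 higher and 3 lower for shPAX8-2, of 11 tested. Of all genes, 35.6% were higher and 35.8% lower with shPAX8-1, and 34.3% and 34.1% with shPAX8-2. None of 9 interferon genes had enough reads to be tested: IFNB1, the gene on which IRF3 acts, had 10 counts summed over the 4 sgNTC18 libraries of 786-M1A and at most 2 in any other group.

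Negative regulators rose more often than they fell, with medians of 0.68 and 0.55 in 786-M1A and 0.51 and 0.55 in OS-LM1. Interferon gamma targets fell more often than they rose in 786-M1A and were split in OS-LM1. In 786-M1A, 36.1% of all genes rose and 34.5% fell with shPAX8-1, and 31.5% rose and 30.9% fell with shPAX8-2. In OS-LM1 these shares were 35.6% and 35.8% with shPAX8-1, and 34.3% and 34.1% with shPAX8-2. USP18, which detaches JAK1 from IFNAR2, fell from 112.0 ± 6.64 CPM (SD, n = 4) to 8.57 ± 0.725 CPM and 6.5 ± 0.791 CPM in 786-M1A. Of the 16 regulators, 11 rose and 3 fell with shPAX8-1 in that line, and 9 rose and 4 fell with shPAX8-2. In OS-LM1, 10 rose and 4 fell with shPAX8-1, and 9 rose and 3 fell with shPAX8-2. SOCS1, a feedback inhibitor of JAK kinases, rose from 3.31 ± 0.566 CPM to 20.8 ± 4.37 CPM and 27.8 ± 6.34 CPM in OS-LM1 (2.63, adjusted p = 1.5e-10 and 3.08, adjusted p = 1.9e-11). Of the interferon gamma targets, 7 of 12 fell and 1 rose with shPAX8-1 in 786-M1A, and 8 fell and 1 rose with shPAX8-2. In OS-LM1, 5 of 11 fell and 6 rose with shPAX8-1, and 4 fell and 6 rose with shPAX8-2. GBP2, a guanylate-binding protein, rose there by 2.69 with shPAX8-1 (adjusted p = 2.9e-14). Of the STAT3 targets, 3 of 8 rose and 2 fell with shPAX8-1 in 786-M1A, shares near those of all genes, and 6 rose with shPAX8-2 (medians 0.28 and 0.91). In OS-LM1, 3 of 9 rose and 2 fell with shPAX8-1, and 5 rose and 2 fell with shPAX8-2 (medians 0.05 and 0.59). OSMR, a receptor of oncostatin M, rose in 786-M1A by 1.29 (adjusted p = 3.5e-09) and 2.02 (adjusted p = 1.1e-10). Among the other interferon regulatory factors, IRF5 fell in both lines with shPAX8-1, by 2.70 (adjusted p = 8.3e-09) in 786-M1A and by 1.74 (adjusted p = 3.9e-10) in OS-LM1.

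**Figure D4:**
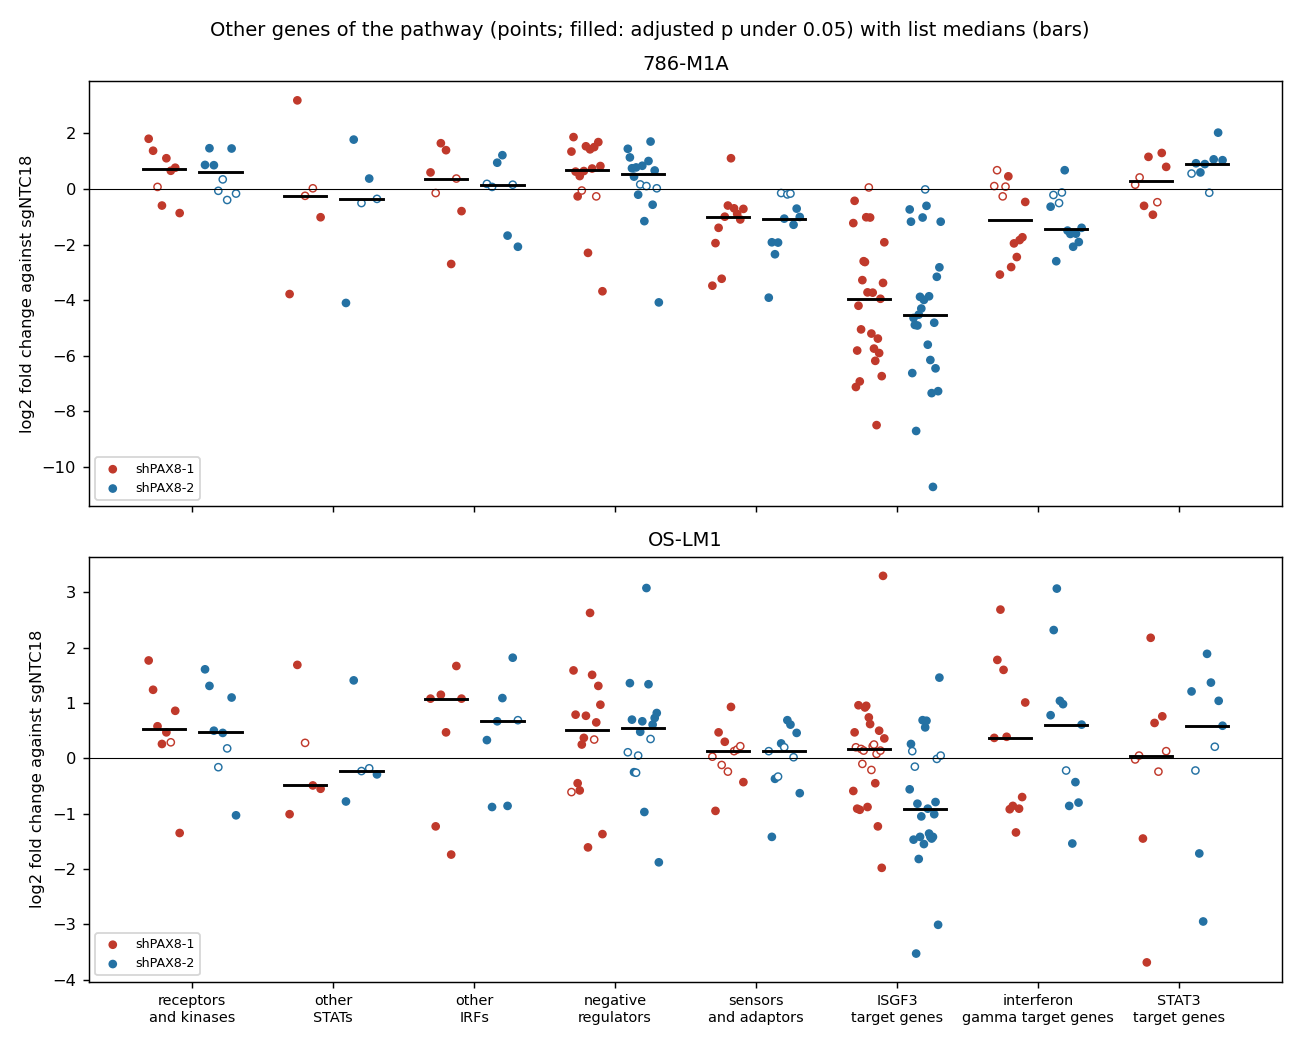
Log2 fold change against sgNTC18 of the other pathway genes by list, with 786-M1A above and OS-LM1 below on different y scales, points for genes (filled where adjusted p was under 0.05) and black bars for list medians. The ISGF3 target genes of 786-M1A have medians of -3.95 and -4.52 and those of OS-LM1 0.17 and -0.91, and the lowest points with shPAX8-2 in 786-M1A, OAS2 and IFI44L, rest on 1 to 6 counts per library.

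Patterns over the 24 libraries were compared by Pearson's r of log2 CPM, a description in which libraries of the same group and line are not independent. The GC trend of each library was not removed for these values. Among the members, IRF7 and IRF9 were most alike (r = 0.946), followed by IRF1 and IRF9 (0.895), STAT2 and IRF1 (0.884) and STAT2 and IRF9 (0.883). IFNAR1 ran opposite to IRF1 (-0.809) and to STAT2 (-0.763), and alongside JAK1 (0.758). Among 9927 genes, the closest to STAT2 were HELZ2 (0.985) and POU5F1 (0.971), those closest to IRF9 were TREX1 (0.972) and NDOR1 (0.950), and those closest to IRF7 were NDOR1 (0.964) and RNF126 (0.962). The genes closest to IRF3 were COMTD1 and METTL17 (both 0.972), and those closest to IFNAR1 were RUFY2 (0.978) and DHX36 (0.970). For IRF1 they were ITPR3 (0.948) and DGKQ (0.947), for STAT3 SLC12A7 (0.942) and H6PD (0.932), for JAK1 RASSF8 (0.965) and MOB1A (0.964), and for IFNAR2 FGD5-AS1 (0.931) and MAGT1 (0.914).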

How the data were processed

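The 24 RNA-seq libraries were grouped by line and construct from their titles. Per the labels and methods, the authors mapped reads to hg38 with RSEM and Bowtie2 (versions not given in the sources used here) and deposited RSEM expected counts, TPM and FPKM per gene with transcript lengths. The labels and the methods differ on the library kit, a KAPA stranded kit in the former and Lexogen kits in the latter. RSEM divides reads among transcripts by estimation, so that near-identical genes can exchange counts. Deposited FPKM values were not used, and deposited TPM values only to rank genes within a group.

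Expected counts were rounded to whole numbers. Genes were filtered with filterByExpr, scaled by TMM and tested with edgeR 4.0.16 (R 4.3.3) by the robust quasi-likelihood test, within each line (12 libraries) or in a fit of all 24 libraries for contrasts between lines. P-values were adjusted by the Benjamini-Hochberg method over all genes tested, with a threshold of 0.05. CPM values used the TMM factors of all 24 libraries, and log2 CPM a prior count of 2. The model was tested on simulated counts.

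All 9 genes and PAX8 were named in every comparison, with at most 3 genes per pathway list and comparison, those with the largest called change whose log2 CPM averaged 0 or more, together with the 2 genes of most like pattern per member. The 9 genes and the pathway lists were chosen with earlier results of these data known. Alternatives were an adjusted p of 0.01, DESeq2 1.42.0 and its size factors, no filter on low counts, a fit of all 24 libraries, a replicate block, removal of a GC trend per library (natural spline with 5 degrees of freedom, genes with a GC value only, 89.9% to 90.3% of those tested) and leaving out each library. Fits with 786-M1A shPAX8-1 replicates 1 and 2 or 3 and 4 alone were chosen after seeing the data. Depth was 11634419 to 52059375 expected counts per library.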

Additional observations from a re-analysis of the deposited data

Results flagged for a closer look

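IFNAR1 in 786-M1A shPAX8-2 replicate 3, at 49.7 CPM, lay apart from the other 3 libraries of its group, which were at 41.9 to 42.7 CPM. Among 54 groups of 4 libraries checked in this way, about 1 in 20, or 2.7, would be marked by chance.

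The change after PAX8 depletion differed between the lines by an interaction test over all genes (edgeR) for 5 genes, given as OS-LM1 minus 786-M1A on the log2 scale. The difference was 1.76 for IRF7, 1.13 for IRF9, 1.08 for STAT2, 0.49 for IFNAR1 and 0.25 for JAK1. The difference between the hairpins also differed between the lines, by 0.72 for IRF9 and 0.51 for STAT2. PAX8 itself differed in the same 2 contrasts, by 1.87 (adjusted p = 7.5e-10) and 1.16 (adjusted p = 1.5e-04), and its part in these differences was not tested.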

How the results depend on the processing

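Of 2421 values of the 9 genes under alternatives, 2192 kept their direction and side of the threshold, 71 lost a call, 99 gained one and 59 turned direction, of which 1 had been called (IRF7, shPAX8-1 against sgNTC18 in OS-LM1, 0.04 with the GC trend removed). Unless a value or the smaller number of libraries shows it, the cause was not tested. Depth limits IRF7 most, with 41 to 823 counts per library.

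The number of the 9 genes called changed by over 1.5 times in 5 comparisons. Between the hairpins in 786-M1A it was 3, against 8 with shPAX8-1 replicates 3 and 4 alone, 1 with replicates 1 and 2 alone, and 3 to 7 with a library left out. Between the hairpins in OS-LM1 it was 1, against 0 at an adjusted p of 0.01, 0 in the fit of all 24 libraries, 0 with the replicate block, 3 with the GC trend removed and 0 to 2 with a library left out. For shPAX8-2 against sgNTC18 in OS-LM1 it was 8, against 5 at 0.01, where 8753 of all 15049 genes were called. For the line difference after depletion it was 5, against 3 at 0.01, where 7360 of all 15665 genes were called. For the line difference between hairpins it was 2, against 0 at 0.01, 4 with DESeq2, 7 with replicates 3 and 4 alone, 0 with replicates 1 and 2 alone, and 1 to 5 with a library left out. Over all genes, calls between hairpins fell from 6803 to 4329 at 0.01 and 3869 with replicates 1 and 2 alone in 786-M1A, and from 4378 to 2703 at 0.01 in OS-LM1. The count over all genes beside the 8 with replicates 3 and 4 alone is not given here. With the GC trend removed, 4807 of 13551 genes were called between hairpins in OS-LM1. Calls of the line difference between hairpins went from 4264 to 2449 at 0.01, 6817 with replicates 3 and 4 alone and 2579 with replicates 1 and 2 alone. With DESeq2, 4707 of 15864 genes were called for that difference.

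Uncalled values that turned direction were near 0 in most cases. With the GC trend removed they were STAT3 0.06 for shPAX8-1 in 786-M1A, IRF1 0.11 for shPAX8-1 in OS-LM1, IRF1 0.02, IRF3 0.23 and IRF7 0.02 between hairpins in 786-M1A, IFNAR1 -0.01 between hairpins in OS-LM1, IRF3 0.32 and 0.19 between lines in sgNTC18 and shPAX8 cells, and IRF3 -0.05 and IFNAR2 0.04 for the line difference between hairpins. With shPAX8-1 replicates 1 and 2 alone they were STAT3 0.01 and JAK1 -0.01 against sgNTC18, IRF1 0.09 and IRF3 0.07 between hairpins, IRF3 0.02 and IRF7 -0.22 between lines in sgNTC18 and shPAX8 cells, and IRF3 -0.02 for the line difference between hairpins. With replicates 3 and 4 alone they were IFNAR2 0.09 against sgNTC18, IFNAR1 0.24 between hairpins, IRF3 0.02 between lines in sgNTC18 cells and IFNAR1 -0.19 for the line difference between hairpins. With DESeq2, IFNAR1 between hairpins in 786-M1A was 1.7e-03 and IRF7 between lines in shPAX8 cells -0.02, the latter also with its size factors (-0.02), and without the filter IRF3 between lines in sgNTC18 cells was 0.01. With a library left out, the ranges were -0.08 to 0.05 for IFNAR2 with shPAX8-1 in 786-M1A, -0.13 to 0.1 for IFNAR1 between hairpins in 786-M1A, -0.05 to 0.1 for IFNAR1 and -0.05 to 0.19 for IRF3 between hairpins in OS-LM1, -0.09 to 0.08 for IRF3 between lines in sgNTC18 cells, -0.1 to 0.2 for IRF7 between lines in shPAX8 cells, and -0.07 to 0.17 for IFNAR1 in the line difference between hairpins.

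Same-numbered replicates did not deviate together on average (mean r 0.048 in 786-M1A and -0.041 in OS-LM1), so the numbers were not taken as pairs. Between the hairpins in 786-M1A, however, same-numbered replicates gave r of 0.217, 0.154, 0.271 and 0.037. Differently numbered ones ranged there from -0.365 to 0.312. With the replicate block, the calls of JAK1 with shPAX8-2 in OS-LM1 (0.18, adjusted p = 0.088) and IRF1 between hairpins in OS-LM1 (0.32, adjusted p = 0.068) were lost, and 2 values gained a call, STAT3 with shPAX8-2 in 786-M1A (0.23, adjusted p = 0.042) and IRF1 in the line difference after depletion (0.41, adjusted p = 0.047).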
